A study of Mus musculus with 22 samples.

Results

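The genes of the mitochondrial respiratory chain were followed through the cell types of the mouse colon crypt. Members were all gene symbols that begin with Nduf followed by a, b, c, s or v and a number, with Uqcr, with Cox followed by a number from 4 to 8, or with Atp5, and no symbol marked as a pseudogene was among them. The rule gave 80 of the 24421 genes in the count files, by symbol 35 of complex I, 8 of complex III, 20 of complex IV and 17 of complex V. Of the 80 members, 3 are not counted as subunits, namely Atp5s, Atp5sl and Cox7a2l, and 8 are isoforms known from particular tissues, such as Cox7a1 of heart and muscle.

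The respiratory chain passes electrons from NADH through complex I, coenzyme Q, complex III and cytochrome c to oxygen at complex IV, and the proton gradient that results drives ATP synthesis by complex V. Most subunits are encoded in the nucleus and imported into mitochondria, while the few made from mitochondrial DNA are not among the genes counted here. In the colon, absorptive cells are known to depend on oxidation of short-chain fatty acids for their energy.

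Cells came from colons of untreated wild-type C57BL/6N male mice aged 5 to 7 weeks and were sorted as live Epcam+ Cd31- Cd45- cells by Cd44, Cd24 and Ckit. The 22 libraries were 3 of stem cells (Stem; Cd44 highest, Cd24 low, Ckit-), 3 of absorptive progenitors (AbsPro; Cd44 medium to high, Cd24 low, Ckit-), 4 of SecPDG (secretory progenitors with deep crypt secretory and goblet cells; Cd44 high, Cd24 medium, Ckit medium), 5 of tuft cells (Ckit+, Cd24 high), 5 of enterocytes (Cd44 low or absent, Cd24-) and 2 of enteroendocrine cells (EECs; Cd44 low or absent, Cd24+). By the study's methods a library of stem cells or AbsPro came from 1 mouse, and the others pooled cells of several mice. RNA was amplified from small inputs and sequenced, and the authors deposited reads counted per gene without regard to strand.

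Counts on genes ranged from 4122122 to 22462518 per library, and values below are normalized counts, scaled between libraries by TMM, unless a share or a level per length is named. Reads outside genes made up 32.4 to 41.2% of those counted in stem cells, AbsPro and SecPDG. Their share was 35.9 to 56.3% for tuft cells, 55.5 to 70% for enterocytes and 54.2 to 74.3% for EECs, the highest being EEC 1. The summed level of 1442 olfactory and vomeronasal receptor genes, which crypt cells are not known to transcribe, was 12.1 to 151 CPM (counts scaled to the library total) in stem cells, AbsPro and SecPDG. It reached 173 to 1427 CPM among tuft libraries, 747 to 3766 CPM among enterocyte libraries and 594 and 6779 CPM in the EEC pair. The part of such reads in the differences below was not tested beyond the values given. Markers of stem cells, tuft cells and EECs were highest in the sort of that name. Of 8 enterocyte markers, 5 were called higher in enterocytes than in AbsPro and none lower, with a median log2 fold change of 2.27 (Aqp8, a water channel, at 3.93 and Car4, a carbonic anhydrase, at 3.23). Their sum, much of it the single gene Car1, which did not pass, was 57956 to 79621 normalized counts in enterocytes, 67465 to 102917 in AbsPro and 22901 and 137417 in the EEC libraries. Secretory markers summed to 785574 to 1185350 in tuft cells against 822241 to 3241604 in SecPDG. Markers of cells outside the gates were higher in the mature sorts: in stem cells and EECs, the sums were 164 to 234 and 808 to 3097 for immune cells, 95 to 255 and 2268 to 3384 for stromal cells, and 74.3 to 164 and 1303 to 1858 for endothelial cells. In bulk RNA, fewer cells of a type and less RNA per cell cannot be told apart. The files of SecPDG and tuft cells carry another form of name than those of the other types, so this difference and the cell type cannot be told apart in their comparisons with stem cells.

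On average over libraries, respiratory chain genes took up the largest share of counts in AbsPro and the smallest in EECs (plot of shares by complex). The 80 members together held 1.16, 1.42 and 1.33% of the counts on genes in the stem cell libraries, 1.51, 1.49 and 1.45% in AbsPro and 1.08, 0.817, 1.15 and 1.2% in SecPDG. The shares were 0.653, 0.872, 0.761, 0.813 and 1.11% in tuft cells, 0.974, 1.1, 1.34, 1.29 and 1.9% in enterocytes and 0.464 and 0.618% in EECs. AbsPro lay above every library of stem cells, SecPDG, tuft cells and EECs, while enterocytes spanned the whole range from below stem cells to above AbsPro. Complex V, the ATP synthase, held the most of the 4 in every library, with an AbsPro mean of 0.603 ± 0.0225% (SD, n = 3) and an EEC mean of 0.192 ± 0.0622% (SD, n = 2). Complex I, the entry point for NADH, went from 0.419 ± 0.00611% (SD, n = 3) to 0.16 ± 0.0262% (SD, n = 2).

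**Figure D1:**
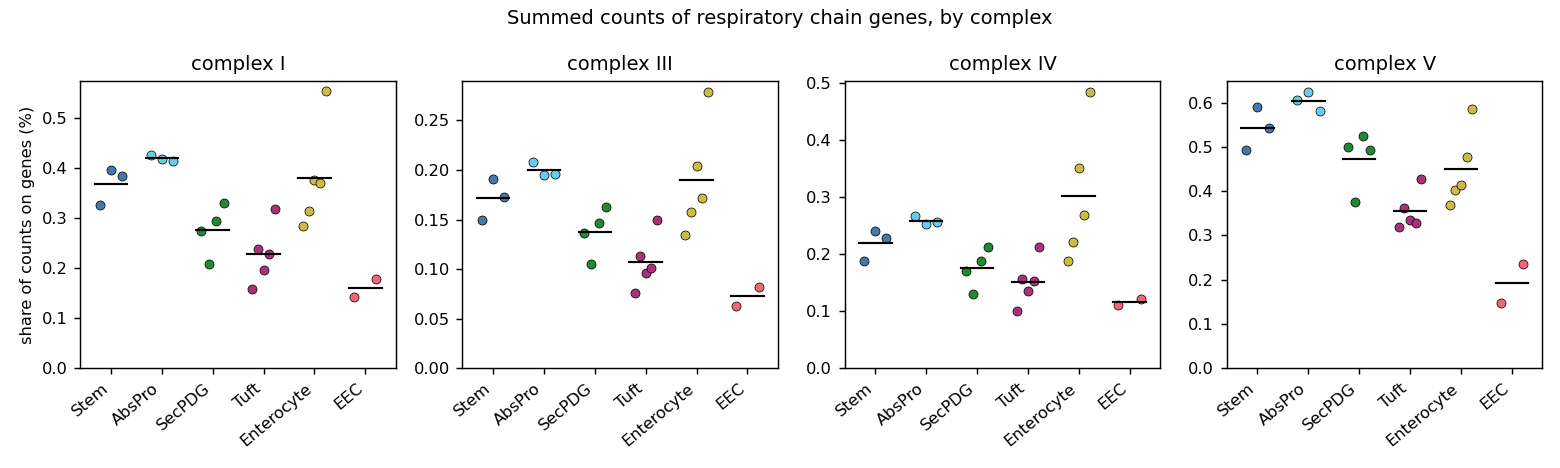
Summed counts of the members of each complex as a share of all counts on genes (vertical axes, %, from 0) in each of the 22 libraries (points) by cell type, with the mean as a bar. AbsPro libraries sit close together at 0.414 to 0.426% for complex I, both EEC libraries lie at 0.142 and 0.179%, and enterocytes spread from 0.283 to 0.553%.

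Per length, in TPM (transcripts scaled to a fixed library sum), a subunit of the ATP synthase led in all types but enterocytes and EECs. Atp5b, the catalytic beta subunit, had 1640 ± 67.3 (SD, n = 3) TPM in stem cells, against 1770 ± 67.9 (SD, n = 3) TPM for AbsPro, and it was first among the members in both, in SecPDG (1400 ± 224 (SD, n = 4)) and in tuft cells (1110 ± 105 (SD, n = 5)). In enterocytes Cox6c, a small subunit of complex IV, came first with 1790 ± 989 (SD, n = 5) TPM, followed by Uqcrb with 1520 ± 912 (SD, n = 5) and Atp5j, of the stalk of the ATP synthase, with 1520 ± 796 (SD, n = 5), and these did not differ beyond their spread. Ndufa6, an accessory subunit of complex I, had 651 ± 46.8 (SD, n = 2) TPM in EECs and Cox6c had 623 ± 80.3 (SD, n = 2), again within their spread. These orders use the mean length of a gene's transcripts. With the longest transcript Atp5b stayed first in the other 4 types, Uqcrb came first in enterocytes and Cox8a in EECs.

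Across the 6 cell types 39 members differed (edgeR quasi-likelihood F test; calls needed an adjusted p below 0.01 together with 50 or more normalized counts on average), beside a background of 33.6% of the 22781 genes tested. Of the 80 members, 79 were tested, since Ndufs5 was listed at 0 in every library, and 72 had the mean of 50. The 39 are 54.2% of these 72, and 58.1% of the 13188 genes at that mean were called, so the share called was close to that of genes at this level. By mean level, 58 of 72 members had their highest mean in AbsPro (80.6%, against 17.1% of the genes at the same mean) and 62 had their lowest in EECs (86.1% against 36.2%). The smallest p-values belonged to Cox7a1 (adjusted p = 1.91e-06), Ndufs8 (2.29e-06), Cox6a2 (3.53e-06, below the minimum mean), Ndufs7 (2.6e-05) and Ndufb8 (3.01e-05). Ndufs7 and Ndufs8 carry iron-sulfur clusters near the quinone site of complex I, and Ndufb8 is an accessory subunit of its membrane arm.

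**Figure D2:**
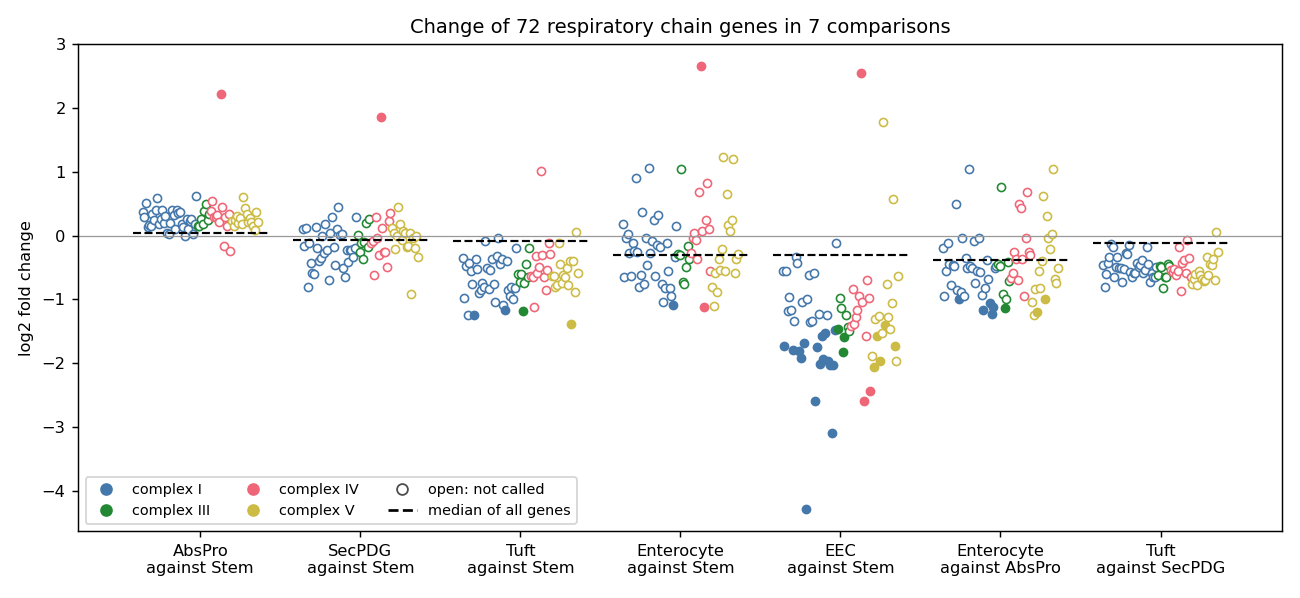
Log2 fold change (vertical axis) of the 72 members with a mean of at least 50 in the 7 comparisons (horizontal axis), coloured by complex. Filled points passed the test, open points did not, and the dashed line is the median of all genes. Cox7a1 is the filled point above 1.8 in 4 comparisons, and in EECs 68 of 72 points lie under the dashed line.

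The promoters of the members on which these results turn are shown from RefSeq (build GRCm38.p6, 250 bases before to 50 after the transcription start), each 5′ to 3′ on the strand of the gene. RefSeq windows were matched for 66 of the 80 members. Capitals mark exact matches, on either strand, to short motifs of factors known for respiratory genes: CGCATGCG for NRF1, CCGGAAGT for the ETS family to which GABPA belongs, AAGATGGC for YY1, TGACGTCA for CREB and TCAAGGTCA for the estrogen-related receptors. NRF1 letters stood in 9 of 66 member promoters (13.6%, against 2.07% of the 27025 genes with a promoter window), YY1 letters in 11 (16.7% against 3.19%), ETS letters in 5 (7.58% against 4.31%), CREB letters in 4 (6.06% against 2.03%) and receptor letters in 1 (1.52% against 0.466%). At least 1 of these motifs stood in 27 of the 66 member promoters. Ndufb2 and Ndufb8 are shown because they were among the largest decreases in EECs, Uqcrc1 and Atp5k because they were lower in tuft cells, and Cox7a1 because it was called higher. Ndufs8 and Cox7a2l, also among the largest decreases in EECs, are not shown. Neither is among the members with a searched motif, which would also hold if no window was matched for them. The windows shown therefore do not stand for the decreased members as a whole. The windows lie at chr6:39592315-39592614, plus strand (Ndufb2), chr19:44555393-44555692, minus strand (Ndufb8), chr9:108936398-108936697, plus strand (Uqcrc1), chr5:108434350-108434649, minus strand (Atp5k) and chr7:30183921-30184220, plus strand (Cox7a1).
Ndufb2 promoter: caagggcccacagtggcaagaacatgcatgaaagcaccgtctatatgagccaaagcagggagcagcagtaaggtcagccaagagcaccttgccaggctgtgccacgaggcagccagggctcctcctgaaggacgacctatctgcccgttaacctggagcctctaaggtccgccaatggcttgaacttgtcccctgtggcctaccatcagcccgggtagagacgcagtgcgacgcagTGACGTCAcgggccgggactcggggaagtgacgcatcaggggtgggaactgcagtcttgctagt
Ndufb8 promoter: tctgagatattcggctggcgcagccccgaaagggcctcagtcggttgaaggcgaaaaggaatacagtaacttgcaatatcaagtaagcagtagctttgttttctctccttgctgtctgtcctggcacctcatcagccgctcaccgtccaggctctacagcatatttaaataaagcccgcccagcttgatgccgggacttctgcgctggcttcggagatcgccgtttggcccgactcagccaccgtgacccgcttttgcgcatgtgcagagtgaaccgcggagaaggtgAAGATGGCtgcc
Uqcrc1 promoter: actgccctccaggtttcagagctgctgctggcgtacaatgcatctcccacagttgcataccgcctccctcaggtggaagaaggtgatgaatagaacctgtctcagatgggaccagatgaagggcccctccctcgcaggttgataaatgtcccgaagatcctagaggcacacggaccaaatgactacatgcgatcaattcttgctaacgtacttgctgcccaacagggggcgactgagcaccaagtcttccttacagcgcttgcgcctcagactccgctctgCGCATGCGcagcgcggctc
Atp5k promoter: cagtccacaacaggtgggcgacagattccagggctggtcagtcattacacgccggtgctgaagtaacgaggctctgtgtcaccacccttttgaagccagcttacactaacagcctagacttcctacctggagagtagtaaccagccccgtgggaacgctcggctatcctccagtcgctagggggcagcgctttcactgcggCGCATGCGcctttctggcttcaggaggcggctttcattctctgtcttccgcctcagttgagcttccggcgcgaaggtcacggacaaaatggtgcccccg
Cox7a1 promoter: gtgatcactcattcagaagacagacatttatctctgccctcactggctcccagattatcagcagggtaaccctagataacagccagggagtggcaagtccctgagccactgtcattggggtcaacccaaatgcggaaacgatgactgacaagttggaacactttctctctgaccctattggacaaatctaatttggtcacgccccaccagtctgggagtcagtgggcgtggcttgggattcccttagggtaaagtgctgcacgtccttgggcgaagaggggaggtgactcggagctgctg
The CREB letters of Ndufb2 begin 14 bases upstream of the start and those of NRF1 in Atp5k 49 bases upstream, while those of NRF1 in Uqcrc1 begin at base 32 of the transcript and those of YY1 in Ndufb8 at base 39. No searched letters were in the Cox7a1 window, and a match of letters is not a measured site.

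Cox7a1 was the only member called higher in the 7 comparisons in the fit of all 22 libraries scaled by TMM. In enterocytes against stem cells, some settings called further members higher. The totals, Cox7a1 included, were 8 members with DESeq2's size factors and 6 in a fit of only the types compared. A fit without the 4 libraries with the most reads outside genes gave 9. Cox7a1 encodes the heart and muscle form of subunit VIIa of cytochrome c oxidase. The gene lies at chr7:30184144-30186078 on the plus strand (GRCm38), with no exon shared with another annotated gene. Its normalized counts were 44.4, 60.8 and 77.5 in stem cells and 297, 158 and 412 in AbsPro. They were 202, 174, 209 and 308 in SecPDG and 127, 130, 67, 81.7 and 194 in tuft cells. They were 329, 276, 308, 481 and 550 in enterocytes and 255 and 444 in EECs. All libraries of AbsPro, SecPDG, enterocytes and EECs lay above all stem cell libraries, and tuft cells overlapped them. Cox7a2, the form found in most tissues, did not pass the test in any comparison, with means of 954 ± 281 (SD, n = 3) for stem cells, 1307 ± 426 (SD, n = 3) for AbsPro and 1010 ± 452 (SD, n = 5) for enterocytes.

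In AbsPro against stem cells, Cox7a1 rose (log2 fold change 2.22 ± 0.46 (SE), adjusted p = 0.00278), and it was 1 member called higher beside a background of 0.496%. No member was called lower, beside 0.0922%, by edgeR or by DESeq2, and 0 of 72 had an unadjusted p under 0.05 in that direction. In 4 of 32 alternatives the call was lost, with the edgeR adjusted p at 0.0399 without Stem 1, at 0.0114 without Stem 2, at 0.0256 without AbsPro 3 and at 0.014 with edgeR's earlier dispersion estimate. Among the other members none passed: the median log2 fold change was 0.26 against 0.04 for all genes, and 67 of 72 members lay above the all-gene median. The members' median stayed 0.18 to 0.28 above that of all genes in all 32 alternatives. Uqcrfs1, the Rieske protein of complex III, had a stem cell mean of 2869 ± 303 (SD, n = 3) and an AbsPro mean of 4068 ± 578 (SD, n = 3) (log2 fold change 0.50 ± 0.37 (SE), adjusted p = 0.831). Cox5a, a subunit of complex IV, had 1918 ± 172 (SD, n = 3) and 2797 ± 88.3 (SD, n = 3) (log2 fold change 0.54 ± 0.34 (SE), adjusted p = 0.734).

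The 6 muscle markers (Myh11, Des, Ckm, Myl1, Tnnt3 and Actc1) were compared with Cox7a1. They summed to 10.2 to 124 normalized counts in stem cells, 29 to 60 in AbsPro and 1.89 to 80.8 in SecPDG, and 1 of the 6 had the mean of 50 over all libraries. Ckm, the muscle creatine kinase, was at 0 in all libraries of stem cells and AbsPro. In the later types the sum was higher, at 90.3 to 661 for tuft cells, 334 to 1160 for enterocytes and 220 and 2153 for EECs, and Myh11, of smooth muscle, was the 1 marker of the 6 called higher there than in stem cells. Their part in the Cox7a1 values was not tested in any type. The level of the receptor genes per base would account for 0.0485% of the Cox7a1 counts in AbsPro, 0.721% in enterocytes and 0.822% in EECs.

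In SecPDG against stem cells only Cox7a1 passed the test (log2 fold change 1.87 ± 0.46 (SE), adjusted p = 0.00363), 1 member called higher beside a background of 3.38%. No member was called lower, beside 1.6%, by edgeR or by DESeq2, and 2 of 72 had an unadjusted p under 0.05 in that direction. The Cox7a1 call was lost without Stem 1 (adjusted p = 0.0324) and without SecPDG 4 (0.0255). The members' median log2 fold change was -0.11 against -0.06 for all genes. Complex V held more relative to complex I in SecPDG 1, 2 and 3, at 1.83, 1.8 and 1.79 counts per complex I count, than in SecPDG 4 (1.49) and in stem cells (1.51, 1.49 and 1.42).

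**Figure D3:**
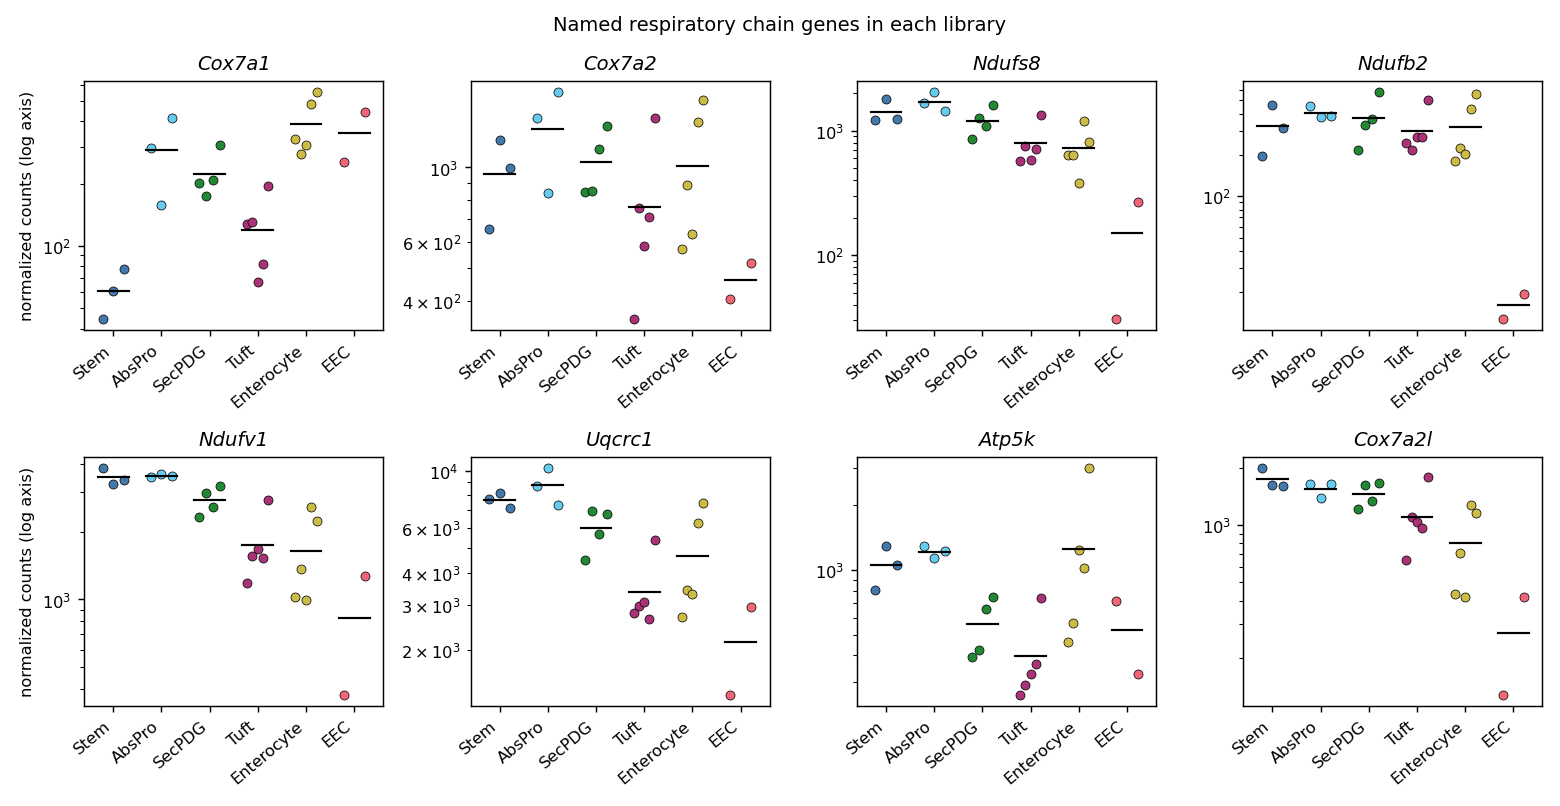
Normalized counts (vertical axes, log scale) of 8 members in each library (points) by cell type, with the mean as a bar. Cox7a1 is low in stem cells and overlaps them in tuft cells, Ndufb2 and Ndufs8 are lowest in EECs, and for Uqcrc1, Ndufv1 and Atp5k a single tuft library, Tuft 5, lies above the other 4.

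In tuft cells most respiratory chain genes had lower values than in stem cells, and few of them passed the test. The members' median log2 fold change was -0.63 against -0.09 for all genes, and 69 of 72 members lay under the all-gene median. Under 711 bases, the members' median transcript length, members had a median of -0.55 and genes of all kinds -0.63. From that length up the medians were -0.74 and -0.07. The test called 4 members lower, beside a background of 4.23%, and none higher, beside 7.83% (DESeq2 called 1 higher, and 1 had an unadjusted p under 0.05). The 4 are 5.56% of the 72 members at the mean of 50, and 7.31% of the genes at that mean were called lower, so the share called was under that of genes at this level. Uqcrc1, a core protein of complex III, had 7770, 8146 and 7125 in stem cells and 2784, 2978, 3064, 2650 and 5376 in tuft cells (log2 fold change -1.18 ± 0.34 (SE), adjusted p = 0.00797). Atp5k, the small e subunit of the ATP synthase, had 804, 1301 and 1057 and 262, 292, 326, 363 and 738 (log2 fold change -1.38 ± 0.37 (SE), adjusted p = 0.00463), and a near-identical copy elsewhere in the transcriptome makes its count less certain. Ndufs3, a core subunit of complex I, had 744, 768 and 786 and 415, 336, 168, 270 and 493 (log2 fold change -1.17 ± 0.33 (SE), adjusted p = 0.00611), and it too has such a copy, and 88 exon bases of Kbtbd4 overlap it on the other strand. These 3 did not overlap between the types, nor did 96.3% of all genes called lower. Ndufa5, an accessory subunit of complex I, was the other call, named because the calls were 4, and its libraries overlapped (1468, 1789 and 1734 in stem cells, 143, 586, 401, 741 and 1568 in tuft cells).

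Tuft 5 stood apart from the other tuft libraries. It had the highest value of the 5 for 70 of 72 members, it had the fewest reads outside genes (35.9% against 50.3 to 56.3%), and its receptor genes summed to 173 CPM against 649 to 1427. Without Tuft 5 the test called 20 members lower, and the members' median was -0.88 against -0.17 for all genes. The count ran from 0 to 20 as single libraries were left out, with 0 without Stem 2, Tuft 2 or Tuft 3, and it was 0 with edgeR's earlier dispersion estimate, 11 by DESeq2 and 16 with library totals. The median stayed 0.42 to 0.81 below that of all genes throughout. Tuft cells against SecPDG, within 1 form of file name, gave no calls by edgeR (backgrounds 3.01% higher and 0.347% lower), with 0 members at an unadjusted p under 0.05 in the higher direction and 13 in the lower, a members' median of -0.53 against -0.12 for all genes and 70 of 72 members under the all-gene median. DESeq2 called 1 member lower there, and edgeR called 2 without Tuft 5 and 3 without EEC 1.

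In enterocytes against stem cells, core subunits and the other members had different medians. The 13 core subunits of the set used here (7 of complex I, the Rieske protein and 5 of the F1 part of the ATP synthase) had a median log2 fold change 0.52 below that of all genes, and all 13 lay under it. The other 59 members had a median 0.15 above it. This set holds Atp5e, and it counts Uqcrc1, Uqcrc2, Cox5a, Cox5b and Atp5o among the others. The written rule for naming genes had these the other way round, and medians by that list were not computed. Over the alternatives the core ran from 0.66 to 0.25 below and the others from -0.17 to 0.49. Of the core subunits only Atp5e, at 421 bases, is shorter than the members' median transcript length of 711 bases. Members under that length had a median log2 fold change of -0.04 and the longer ones -0.57. The core split and the length split thus largely coincide, and their parts were not tested. For all 72 members the median was -0.27 against -0.30, and it turned to 0.24 against 0.35 with DESeq2's size factors and to 0.14 against 0.24 with library totals, so no direction is given for the whole.

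The test called 1 member higher in enterocytes than in stem cells, Cox7a1 (log2 fold change 2.66 ± 0.43 (SE), adjusted p = 2.22e-06, called in all 32 alternatives), beside a background of 10.7%, and 2 lower, beside 11.5% (2.78% of the 72 members, against 19.8% of the genes at the mean of 50). The split turned with the scaling, to 8 higher and 1 lower with DESeq2's size factors, 4 and 3 with library totals, and 6 and 1 by DESeq2. Ndufv1, the subunit of complex I that binds NADH, had 3821, 3242 and 3367 in stem cells and 1026, 1365, 990, 2573 and 2232 in enterocytes (log2 fold change -1.08 ± 0.32 (SE), adjusted p = 0.00386). Cox7a2l, a factor that joins complexes III and IV in supercomplexes, had 1990, 1620 and 1593 and 432, 714, 416, 1280 and 1155 (log2 fold change -1.11 ± 0.32 (SE), adjusted p = 0.00297). Neither overlapped, as was the case for 93.6% of all genes called lower there, and in both the lowest values belonged to Enterocyte 1 and 3. As single libraries were left out, the lower count ran from 0 (without Stem 1 or Enterocyte 3) to 23 (without EEC 1). Without the 4 libraries with the most reads outside genes (Enterocyte 1, 2 and 3 and EEC 1) neither was called, the members called higher were 9, and the members' median lay 0.38 above that of all genes.

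Enterocyte 5 held the highest value of the 5 libraries for 49 of 72 members and Enterocyte 4 for 22. Uqcrb, which belongs to complex III and was picked here after its values were seen, had 1668, 2695, 6042, 3562 and 13498 in enterocytes against 2018, 3208 and 2767 in stem cells (log2 fold change 1.04 ± 0.41 (SE), adjusted p = 0.0252, not called), and its count is uncertain since 3 near-identical copies exist. The count of Uqcrb per count of Uqcrc1 was 0.621, 0.789, 1.82, 0.568 and 1.81 in enterocytes and 0.26, 0.394 and 0.388 in stem cells. All enterocyte libraries lay above all stem cell libraries in this ratio. Since Uqcrb was picked with its values known, this separation adds no evidence. Of all genes at the mean of 50, 21.4% lay wholly higher and 26% wholly lower in enterocytes. The 13 core subunits held 38.2, 36.9, 23.3, 37.1 and 23.7% of the members' counts in enterocytes, 45.5, 42.9 and 42.2% in stem cells and 41, 43.9 and 41.4% in AbsPro. Enterocytes lay below both, but Tuft 5 (38.2%), EEC 1 (23.7%) and EEC 2 (38.6%) had shares like theirs. Most of these core counts come from Atp5a1 and Atp5b, at 62871 and 44205 over the enterocyte libraries against 12969 for Atp5c1.

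Against AbsPro, from which enterocytes derive, enterocytes had 8 members called lower, beside a background of 7.98%, and none higher, beside 8.21% (1 had an unadjusted p under 0.05). The 8 are 11.1% of the 72 members at the mean of 50, under the 13.8% of genes at that mean that were called lower. DESeq2's size factors gave 4 higher and 3 lower, library totals 1 and 4, and DESeq2 2 and 3. Those called with TMM included Ndufs7, Ndufs8, Ndufv1 and Ndufa8 of complex I, Uqcrc2 of complex III, and Atp5d and Atp5g3 of the ATP synthase, and none of the 8 overlapped between the types, as for 93.4% of all genes called lower. Ndufs8 had 1654, 2023 and 1427 in AbsPro and 640, 632, 380, 1184 and 810 in enterocytes (log2 fold change -1.22 ± 0.32 (SE), adjusted p = 0.00225). Atp5d, the delta subunit of the F1 stalk, had 5433, 7075 and 4953 and 2050, 2251, 1317, 4157 and 2875 (log2 fold change -1.20 ± 0.34 (SE), adjusted p = 0.00426). The core median lay 0.65 below that of all genes and the median of the other members 0.08 below. By transcript length, the shorter members had a median log2 fold change of -0.36 and the longer ones, which hold most core subunits, -0.83. The count of 8 ran from 0 (without Enterocyte 3) to 31 (without EEC 1) as single libraries were left out, and it was 0 without the 4 libraries with the most reads outside genes.

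EECs had the lowest mean of the 6 types for most members. The members' median log2 fold change against stem cells was -1.37 against -0.30 for all genes, and 68 of 72 members lay under the all-gene median. Under 711 bases, the members' median transcript length, members had a median of -1.15 and genes of all kinds -1.11. From that length up the medians were -1.58 and -0.29, and the part of length was not tested. The test called 27 members lower, beside a background of 9.14%, and Cox7a1 alone higher (log2 fold change 2.55 ± 0.52 (SE), adjusted p = 8.65e-05), beside 10.8%. The 27 are 37.5% of the 72 members at the mean of 50, against 15.8% of the genes at that mean. The Cox7a1 call was lost without EEC 2 and with only EECs and stem cells in the fit (adjusted p = 0.0109 in both). With DESeq2's size factors the all-gene median was 0.48 and that of the members -0.77, and the members lay 0.72 to 1.46 below all genes over the alternatives. The 27 held 17 members of complex I, 3 of complex III, 2 of complex IV and 5 of complex V, and they included 9 of the 13 core subunits. The 27 did not overlap between the 2 EEC and the 3 stem cell libraries, nor did 99.9% of all genes called lower, so this adds nothing about the members.

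Ndufb2, an accessory subunit of the membrane arm of complex I at chr6:39592574-39603382 (plus strand, GRCm38), had the largest called decrease. An exon of the antisense gene Gm16272 overlaps it by 156 bases, and counting did not use strand. It had 195, 464 and 315 in stem cells, 452, 376 and 387 in AbsPro and 181, 223, 204, 430 and 559 in enterocytes, but 12.7 and 19.4 in EECs (log2 fold change -4.29 ± 0.86 (SE), adjusted p = 6.57e-05). The EEC libraries hold 7 and 16 reads of it, and the receptor genes' level per base would give 17.9 in EEC 1 and 5 in EEC 2. Ndufb2 was thus under this background in EEC 1 and at 3.2 times it in EEC 2. The background uses the mean length of its annotated transcripts, 2413 bases with the longest at 4371. It would be lower for a shorter transcript, and which transcript the cells use was not tested. Ndufs8 had 1209, 1783 and 1228 in stem cells and 30.7 and 268 in EECs (log2 fold change -3.09 ± 0.53 (SE), adjusted p = 5.81e-06). Cox7a2l had 128 and 416 in EECs (log2 fold change -2.59 ± 0.49 (SE), adjusted p = 2.7e-05), and Ndufb8 had 139 and 386 against 1752, 1500 and 1735 in stem cells (log2 fold change -2.59 ± 0.49 (SE), adjusted p = 3.05e-05). Ndufb8 shares 134 exon bases with the annotated gene Gm20538 on the same strand. Atp5b had 23143, 24205 and 23100 in stem cells and 1790 and 9379 in EECs (log2 fold change -2.06 ± 0.60 (SE), adjusted p = 0.00398). Ndufa4, a subunit of complex IV despite its name, had 155 and 106 against 636, 581 and 856 (log2 fold change -2.44 ± 0.63 (SE), adjusted p = 0.0013).

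The EEC libraries differed in level. EEC 1 had the lower value for 65 of 72 members, 74.3% of its reads outside genes against 54.2%, and 4122122 counts on genes against 13132315. Without EEC 1 the test called 13 members lower, with a members' median of -1.05 against -0.30 for all genes, and without EEC 2 it called 44, so each count rests on a lone library whose spread is taken from the other types. Ndufs7, Ndufs8, Ndufv1, Cox7a2l and Ndufb8 were called in all 32 alternatives, and Ndufb2 in 31 of 32. With EECs and stem cells fitted alone, 7 were called lower and none higher.

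**Figure D4:**
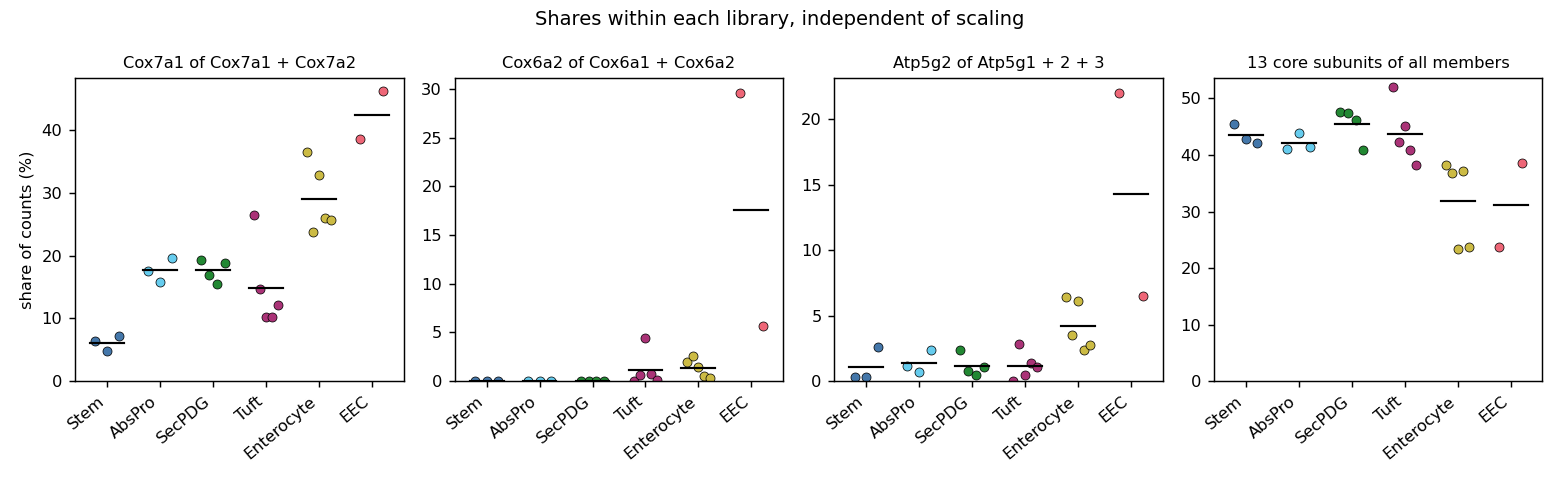
Share of counts (vertical axes, %, from 0) of Cox7a1, Cox6a2 and Atp5g2 within their isoform families and of the 13 core subunits among all members, in each library (points) by cell type, with the mean as a bar. The Cox7a1 share is 4.78 to 7.22% in stem cells and 38.6 and 46.2% in EECs, and the core share is 23.3 to 38.2% in enterocytes.

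Within isoform families, shares are free of scaling. Cox7a1 made up 6.35, 4.78 and 7.22% of the Cox7a1 and Cox7a2 counts in stem cells, 17.5, 15.8 and 19.7% in AbsPro, 36.6, 23.8, 32.8, 26 and 25.7% in enterocytes and 38.6 and 46.2% in EECs. Stem cells lay below every other library in this share. Of the Atp5g genes, which encode the same ring subunit of the ATP synthase with different import sequences, Atp5g3 held 79.4, 79.9 and 85.6% in stem cells and 75, 77.8, 73.9, 78.5 and 73.6% in enterocytes. Atp5g2 held 22 and 6.5% in EECs and at most 6.4% elsewhere. Its difference in EECs against stem cells did not pass (log2 fold change 1.79 ± 0.74 (SE), adjusted p = 0.041).

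The isoforms known from particular tissues were low, and besides Cox7a1 they did not share 1 pattern. For Cox6a2, Cox4i2 and Cox7b2 no count was listed in stem cells or AbsPro, while the mean of Cox6b2 was highest in stem cells. Cox6a2, the muscle form of subunit VIa, had no count in any library of stem cells or AbsPro, and 0, 13.9, 89.7, 17.3 and 4.18 normalized counts in tuft cells, 30.7, 49.3, 31.2, 22.8 and 13.8 in enterocytes and 172 and 124 in EECs. Against a floor of 3 counts per library it was at least 71.1-fold higher in EECs than in stem cells. The receptor genes' level would give 3.28% of its counts in EECs, 9.01% in tuft cells and 14.3% in enterocytes. An exon of Itgad overlaps it by 70 bases on the other strand, and counting did not use strand. It stayed below the minimum mean and so was not called. Cox6a1, the widespread form, had 1241 ± 1177 (SD, n = 2) in EECs.

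Cox4i2, the form of subunit IV known from lung and low oxygen, was at 0 in stem cells, AbsPro and EECs and had 27.8, 34.4, 45.1, 9.12 and 38.8 in enterocytes, at least 14.9-fold over the stem cell floor, beside 4646 ± 2050 (SD, n = 5) of Cox4i1. In tuft cells it had 26.9, 37.9, 5.06, 19.6 and 5.86, at least 9.16-fold over that floor. Cox7b2 had no count in stem cells or AbsPro, 51.2, 49.3, 56.6, 16 and 23.5 in enterocytes and 3.66, 29, 43, 32.2 and 12.5 in tuft cells, at least 18.9-fold and 11.6-fold over the floor, and 38 and 0 in EECs. The receptor genes' level would give 15% of the Cox4i2 counts and 8.74% of the Cox7b2 counts in enterocytes, and 12.3% and 7.11% in tuft cells. Cox8c, known from testis, had 174 and 0 in the EEC libraries, all from EEC 1, and 10.2, 17.2, 28.9, 17.1 and 13.8 in enterocytes. Cox6b2, of testis, had 80.3, 62.1 and 74.1 in stem cells and 33.2, 13 and 47.8 in AbsPro. In SecPDG it had 5.67, 24.9, 76.7 and 28.4, so SecPDG 3 lay above Stem 2 and Stem 3. In tuft cells it had 0, 13.9, 27.8, 18.4 and 23.4. Enterocytes had 41, 22.9, 55.5, 18.2 and 24.9 and EECs 28.9 and 15.8. All values of tuft cells, enterocytes and EECs were under the stem cell values. Cox8b, of muscle, had 10.7, 25.6 and 3.37 in stem cells and 17.6, 6.88, 20.8, 1.14 and 0 in enterocytes. Ndufa4l2, a relative of Ndufa4, had 0, 0 and 10.8 in stem cells and 52.7, 14.9, 63.5, 26.2 and 22.2 in enterocytes. None of these 3 passed in any comparison, and their means over all 22 libraries were under 50.

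Changes differed with transcript length among the members in enterocytes (plot of change against length). Over the 72 members, Spearman's rho between the log2 fold change and the mean transcript length was -0.52 in enterocytes, -0.45 in EECs and -0.22 in tuft cells, each against stem cells, and 0.15, 0.23 and 0.23 over the 13129 genes with a length. Genes share the same libraries, so these are descriptions across genes and not tests. In enterocytes, the 36 members under the median length of 711 bases had a median of -0.04 and the 36 others -0.57. In EECs the values were -1.15 and -1.58. The 395 genes of all kinds under that length had a median of -1.11 in EECs and -0.63 in tuft cells, beside -1.15 and -0.55 for the shorter members, and -0.36 in enterocytes. The part of transcript length in the members' differences was not tested.

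**Figure D5:**
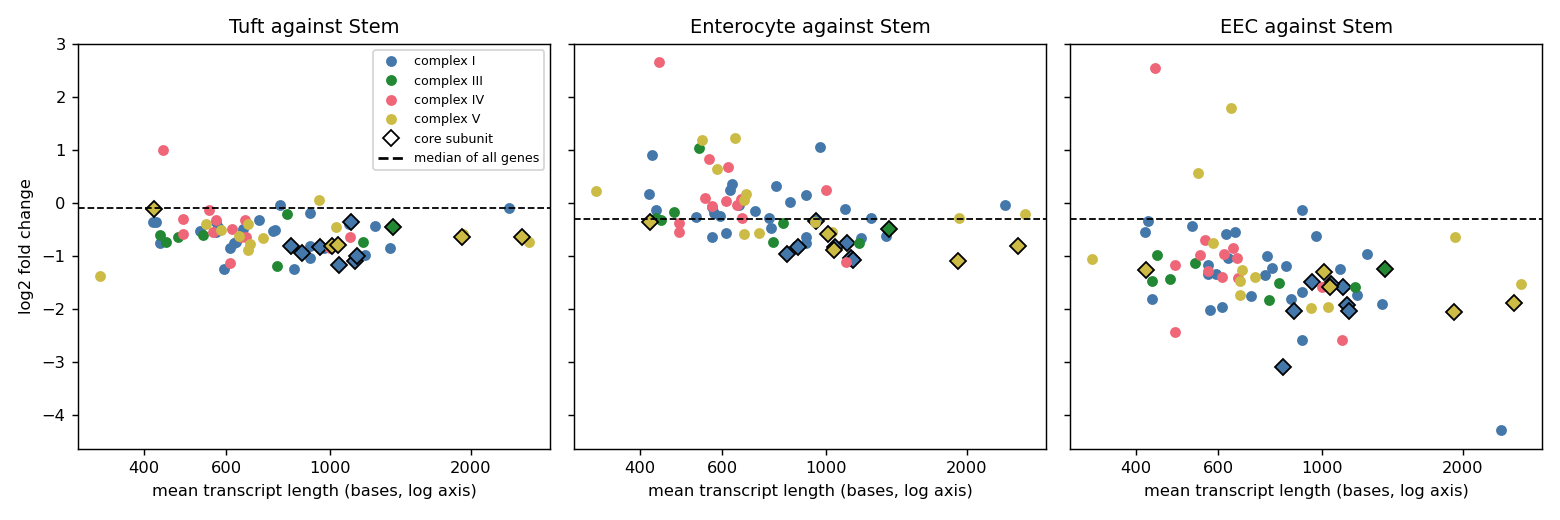
Log2 fold change against stem cells (vertical axis) by mean transcript length (horizontal axis, bases, log scale) of the 72 members in tuft cells, enterocytes and EECs, coloured by complex, with core subunits as outlined diamonds and the median of all genes as a dashed line. In enterocytes all 13 diamonds lie under the dashed line while the other points lie on both sides of it.

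Genes of the same pathway outside the rule were taken from lists. Among all genes at the mean of 50, 15.8% were called lower in EECs, 19.8% in enterocytes and 7.31% in tuft cells against stem cells, and 13.8% in enterocytes against AbsPro, and the counts below are to be read beside these shares. No gene of these lists was called in AbsPro or SecPDG against stem cells or between tuft cells and SecPDG. Of the 4 subunits of complex II, which feeds electrons from succinate, Sdhb passed as lower in EECs (-1.41 on the log2 scale against stem cells), and Sdhb, Sdhc and Sdhd were lower in enterocytes than in AbsPro (-1.10, -1.23 and -1.24). Cyc1, the cytochrome c1 of complex III, was lower in both comparisons (-1.73 and -1.37), and the other gene of the cytochrome list was not called. Of 13 genes of the tricarboxylic acid cycle, which supplies NADH, 10 were lower in EECs, 3 in enterocytes and 1 in tuft cells against stem cells and 6 in enterocytes against AbsPro, led by Idh3g, a subunit of isocitrate dehydrogenase (-2.45, -1.43 and -1.31). None of the 13 was higher in any comparison, and the counts in enterocytes and tuft cells against stem cells were near the share of all genes.

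Assembly factors and the nuclear genes that replicate and transcribe mitochondrial DNA were called lower where they were called. Of 13 complex I assembly factors, 5 were lower in EECs, 3 in enterocytes and 1 in tuft cells against stem cells, and 4 in enterocytes against AbsPro, with Ndufaf1 at -3.12 and -1.39. Of 17 complex IV assembly factors at the mean of 50, 4 were lower in each of EECs, enterocytes and tuft cells and 5 in enterocytes against AbsPro, with Cox10, of heme A synthesis, at -2.21 in EECs. Of 6 complex III assembly factors, 2 were lower in enterocytes (Bcs1l at -1.25, Uqcc3 at -1.24). Of 4 genes for ATP synthase assembly and its inhibitor, Tmem70 was lower in EECs (-3.10). Of 9 genes for replication and transcription of mitochondrial DNA, 5 were lower in EECs, 5 in enterocytes and 3 in tuft cells against stem cells and 2 in enterocytes against AbsPro, Tfam, the packaging factor, at -2.24, -1.50 and -1.01. Ndufab1, Usmg5 and 2010107E04Rik, subunits whose symbols the rule does not match, were not called in any comparison.

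Among 9 regulators of respiratory genes, Ppargc1a, the coactivator PGC-1 alpha, was higher in enterocytes than in stem cells (1.28), while Pprc1 (-1.94) and Gabpa (-0.93) were lower. In EECs 4 were lower, Gabpa at -2.71 and Esrra at -1.51, and in tuft cells Ppargc1b was lower (-1.08). Of 7 carrier genes at the mean of 50, Slc25a4, the heart and muscle form of the ADP and ATP carrier, was lower in enterocytes (-2.59) and Slc25a20, which carries acylcarnitine, was higher (1.46). Vdac1 (-1.72) and Slc25a5 (-1.52), the outer membrane channel and the common ADP and ATP carrier, were lower in EECs.

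Of the members that are no subunits besides Cox7a2l, Atp5s had 97.7 ± 83.6 (SD, n = 3) in stem cells and 22.4 ± 21.5 (SD, n = 2) in EECs, and Atp5sl had 526 ± 84.2 (SD, n = 3) and 335 ± 56.7 (SD, n = 2). Neither passed in any comparison.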

How the data were processed

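RNA from 22 libraries of sorted mouse colon crypt cells was analysed. Per the submitters' processing notes and the study's methods, the authors trimmed and aligned paired reads to mm10 with STAR 2.5.2a and counted them per gene with HTSeq 0.6.1p1 without strand, and the deposited values are these raw counts. Lines that name no gene held 53.9 to 91.6% of what each file counts and were left out. All genes were fitted together with edgeR 4.0.16 in R 4.3.3 (filterByExpr, TMM, quasi-likelihood F test, 1 mean per cell type, Benjamini-Hochberg adjustment), and calls needed an adjusted p below 0.01 together with 50 or more normalized counts on average. The fit tested 22781 genes and 79 of 80 members. Depth was 4122122 to 22462518 counts on genes per library. TPM used mean transcript lengths from GENCODE (GRCm38), to which all 80 members matched. Of the members, 7 have copies of at least 95% identity and 29 share exon bases with another gene. The script was tested on simulated data.

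Samples were grouped by the labels, and the 7 comparisons, the alternatives (DESeq2 1.42.0, other scalings, filters and thresholds, a replicate block, each library left out) and the genes named (core subunits, isoform families, the 3 largest called changes each way without overlap, the 5 smallest p over all types, members that are no subunit, and up to 3 genes of each list) followed written rules. Members and lists were chosen with earlier results of these data known. Ndufa5, Ndufa6, Ndufa8, Atp5j, Cox6c and Uqcrb fall outside the rule and were chosen after their values were seen. Values of some members are not reported here. The main fit did not pair libraries by replicate number, and the labels do not say whether a number marks a shared sort. Of 44 pairs with the same number 16 had a correlation of deviations over 0.1, which cannot decide this. Most libraries pool mice, and p-values measure the spread between libraries.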

Additional observations from a re-analysis of the deposited data

Results flagged for a closer look

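Among 120 sets of 4 or 5 libraries of a cell type tested for a single library far from the others by Dixon's test, 19 held one, and chance gives about 1 in 20 sets. Tuft 5 was high for 16 members. Its normalized counts in complex I were 1330 of Ndufs8 (574 to 757 in the other tuft libraries), 2929 of Ndufv2 (715 to 1310), 504 of Ndufb2 (217 to 270) and 1410 of Ndufb8 (607 to 696). Those of Uqcrc1, in complex III, were 5376 (2650 to 3064). In complex IV it held 1819 of Cox5a (998 to 1173), 2996 of Cox5b (1009 to 1433), 5756 of Cox4i1 (2949 to 3233), 3520 of Cox6a1 (1940 to 2369), 2322 of Cox6b1 (713 to 1155) and 4445 of Cox8a (2429 to 2983). In complex V it held 24240 of Atp5a1 (14599 to 17198), 4677 of Atp5c1 (2012 to 2413), 3869 of Atp5d (2270 to 2638), 2489 of Atp5o (975 to 1263) and 738 of Atp5k (262 to 363).

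Enterocyte 5 held 1116 normalized counts of Ndufa4, against 180 to 419 in the other enterocyte libraries, and Atp5g1 made up 23.6% of its Atp5g counts, against 18.6 to 20%. Cox7a1 made up 26.5% of the Cox7a1 and Cox7a2 counts in Tuft 1, against 10.3 to 14.7% in the other tuft libraries.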

How the results depend on the processing

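The EEC comparison rests on 2 libraries, of which EEC 1 has 4122122 counts and 74.3% of its reads outside genes, and the Enterocyte comparisons depend on the scaling. Counts of members called are given as higher, then lower, where they moved by over 1.5 times, and the cause was not tested. By DESeq2 the counts were 1 and 11 in Tuft against Stem, 6 and 1 in Enterocyte against Stem, 2 and 3 in Enterocyte against AbsPro, and 1 lower in Tuft against SecPDG. With DESeq2's size factors they were 8 lower in Tuft, 8 and 1 in Enterocyte, and 4 and 3 in Enterocyte against AbsPro. With library totals they were 16 lower in Tuft, 4 higher in Enterocyte, and 1 and 4 in Enterocyte against AbsPro. With no filter they were 11 lower in Tuft and 4 lower in Enterocyte. With no minimum mean they were 4 higher in Enterocyte, 3 higher in EEC and 2 higher in Enterocyte against AbsPro. At an adjusted p under 0.05 they were 17 lower in Tuft, 4 and 12 in Enterocyte, 2 and 46 in EEC, and 1 and 23 in Enterocyte against AbsPro. With only the cell types compared in the fit they were 1 lower in SecPDG, 23 lower in Tuft, 6 and 1 in Enterocyte, 0 and 7 in EEC, 1 and 1 in Enterocyte against AbsPro, and 9 lower in Tuft against SecPDG. With edgeR's earlier dispersion estimate, added after seeing the data, they were 0 higher in AbsPro and 0 lower in Tuft, Enterocyte and Enterocyte against AbsPro. Without the 4 libraries with the most reads outside genes, also added after seeing the data, they were 24 lower in Tuft, 9 and 0 in Enterocyte, 14 lower in EEC, 3 and 0 in Enterocyte against AbsPro, and 5 lower in Tuft against SecPDG.

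The members' median log2 fold change turned positive in Enterocyte against Stem by DESeq2 (0.235), with its size factors (0.239), with library totals (0.135), with only the types compared (0.0103) and without the 4 libraries (0.432). It did so in Enterocyte against AbsPro by DESeq2 (0.0193), with its size factors (0.031) and without the 4 libraries (0.153). Medians of the other 5 comparisons kept their sign in all alternatives. Leaving out single libraries gave 33 to 57 members that differ among types, 0 to 1 higher in AbsPro, 0 to 1 higher in SecPDG, 0 to 20 lower in Tuft, 1 to 2 higher and 0 to 23 lower in Enterocyte, 0 to 2 higher and 13 to 44 lower in EEC, 0 to 31 lower in Enterocyte against AbsPro, and 0 to 3 lower in Tuft against SecPDG.

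A replicate block gave 66 members that differ among types, 42 lower in Tuft, 24 lower in Enterocyte, 42 lower in EEC, 43 lower in Enterocyte against AbsPro and 9 lower in Tuft against SecPDG. Correlations of deviations between libraries of the same number ran from -0.393 to 0.488 with a median of 0.0015, against a median of 0.0198 between other numbers. These values cannot tell whether some libraries of the same number share a sort, and the labels do not state it. The block is therefore given as an alternative only.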
